A study of Mus musculus with 4 samples.

Results

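The 10 Polycomb complex genes described here are Ezh1, Ezh2, Eed, Suz12 and Jarid2 of the Polycomb repressive complex PRC2, and Pcgf1, Pcgf2, Bmi1, Rnf2 and Cbx2 of PRC1. They were taken by name from 33073 autosomal protein-coding and lncRNA genes, each with 5 kb on either side, called the extended span below. They were chosen by their family with the methylation levels and the FGR against control differences of these 4 libraries already known, so those differences are given as a description, without a test of the members. DNA methylation had been measured by whole-genome bisulfite sequencing, which reads methylated cytosines as C and unmethylated ones as T. The DNA came from microglia, the resident macrophages of the brain, of the hippocampus at postpartum week 3. All mice were Tmem119-tdTomato+/-, a genotype with a red fluorescent marker at Tmem119, a gene typical of microglia. Control mice gave 2 libraries and mice with FGR gave 2, FGR being read here as fetal growth restriction. The labels do not say how the restriction was produced. Nor do they say whether the libraries came from separate animals or from pools, so the spread between libraries may be technical.

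PRC2 is the enzyme complex that methylates lysine 27 of histone H3, and PRC1 attaches ubiquitin to histone H2A; together they keep developmental genes silent. In most cells CpG-rich gene starts carry little DNA methylation, and the bodies of the same genes are highly methylated. Polycomb complexes tend to sit on unmethylated CpG-rich DNA, and PRC2 in microglia is known for restraining genes that the cells do not use.

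The deposited tables list only cytosines with at least 5 reads on their strand, so each library has its own list of CpGs. Summed coverage was 62202250 and 66971740 in control 1 and 2, and 49563150 and 91762720 in FGR 1 and 2. A level is the percent of methylated reads over all listed CpGs of a region, with both strands summed. Autosomal levels lay between 74.6% and 76.4%. The extended spans of the 10 genes held 4441 CpGs listed by any library. Of these, 2417 (54.4%) were listed in both groups, that is by at least 1 control and at least 1 FGR library, and 423 (9.52%) by all 4 libraries. Start windows of the microglial genes P2ry12 and Cx3cr1, from 1500 bp before to 500 bp after the start, had levels of at most 4% in every library. Of the neuronal genes, the start window of Rbfox3 had at least 79.7%, that of Map2 30.4% to 47.5%, and 1 end of Snap25, whose start is not in the promoter table, 3.19% to 4.84%. These windows thus do not tell the cell types apart by a single rule.

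Upstream sequences are shown because few of their CpGs were listed in any library, and the start windows below differ in which CpGs each library lists. The 250 bases before the start are given for the catalytic subunits Ezh1 and Ezh2 and the core subunits Eed and Suz12, on the strand of the gene, with each CpG in capitals. They are RefSeq sequences of GRCm38.p6, the assembly of mm10, at chr11:101226464-101226713 (minus strand), chr6:47595031-47595280 (minus), chr7:89980977-89981226 (minus) and chr11:79992856-79993105 (plus).
Ezh1: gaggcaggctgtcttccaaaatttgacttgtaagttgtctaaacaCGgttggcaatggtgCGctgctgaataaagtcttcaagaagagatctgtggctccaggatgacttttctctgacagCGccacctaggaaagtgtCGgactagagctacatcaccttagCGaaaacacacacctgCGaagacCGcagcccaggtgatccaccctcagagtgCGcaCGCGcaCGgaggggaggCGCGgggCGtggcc
Ezh2: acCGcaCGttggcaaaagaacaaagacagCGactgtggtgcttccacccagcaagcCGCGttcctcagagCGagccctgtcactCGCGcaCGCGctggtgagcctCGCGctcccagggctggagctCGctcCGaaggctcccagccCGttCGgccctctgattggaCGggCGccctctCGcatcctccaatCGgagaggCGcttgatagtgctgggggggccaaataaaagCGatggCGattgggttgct
Eed: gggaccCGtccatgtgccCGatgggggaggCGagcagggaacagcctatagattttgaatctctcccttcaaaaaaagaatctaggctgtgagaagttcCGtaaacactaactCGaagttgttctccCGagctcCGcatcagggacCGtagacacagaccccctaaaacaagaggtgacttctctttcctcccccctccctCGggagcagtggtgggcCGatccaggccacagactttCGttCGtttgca
Suz12: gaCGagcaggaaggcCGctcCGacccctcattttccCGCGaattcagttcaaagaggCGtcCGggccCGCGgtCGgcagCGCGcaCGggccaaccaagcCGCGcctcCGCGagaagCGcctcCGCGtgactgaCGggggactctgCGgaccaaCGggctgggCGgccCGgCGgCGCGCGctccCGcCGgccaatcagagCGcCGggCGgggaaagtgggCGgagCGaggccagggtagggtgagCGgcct
These windows hold 14 CpGs for Ezh1, 23 for Ezh2, 12 for Eed and 37 for Suz12. At least 37 CpGs stand in 2.88% of 20085 promoters of the same length, searched for the letters CG, which read the same on both strands. No library listed any of the 23 CpGs of Ezh2 or of the 37 of Suz12. In Eed 9 of the 12 were listed by at least 1 library, 4 by control 1 and 5 by FGR 1. In Ezh1 10 of the 14 were listed, 7 by control 1, 7 by control 2, 2 by FGR 1 and 3 by FGR 2. The table held 9 upstream windows of 8 members, with 177 CpGs, of which 26 (14.7%) were listed by any library, against 36.9% over all 20085 promoters. The members' windows were denser, with a median of 21 CpGs against 10 over all promoters. Dense promoters were listed less, with 37.3% at 16 to 25 CpGs and 14.5% at 26 or more.

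Ezh1, a catalytic subunit of PRC2 found in non-dividing cells, lies on chromosome 11 from 101191115 to 101226463. Its extended span had levels of 75.5% and 76.0% in the controls and 79.7% and 84.1% in FGR, a difference of 6.17 points between the group means (75.7% ± 0.352 and 81.9% ± 3.09, SD, n = 2). Both FGR libraries lay above both controls. At CpGs listed in both groups the levels were 82.1%, 82.8%, 81.7% and 85% (controls 1 and 2 first, then FGR 1 and 2, as in every list of 4 values below). There the groups overlapped and the difference was 0.90 points. The 34 CpGs of the span listed by all 4 libraries had 85.1%, 82.6%, 80.3% and 82.0%. At these 34 sites the direction was reversed, with a difference of -2.72 points and the higher FGR value still under the lower control value. The start window gave 14.1% and 13.7% in the controls over 32 and 43 listed CpGs, and 50.5% and 62.3% in FGR over 13 and 21. At the CpGs of that window listed in both groups the values were 51.2%, 49.2%, 50.5% and 63.3%, and the groups overlapped. At the 4 CpGs listed by all 4 libraries they were 45%, 45.8%, 57.1% and 59.5%, from 20, 24, 49 and 37 reads, with both FGR libraries above both controls and a difference of 12.9 points. The last CpG of this window lay at 497, 446, 446 and -128 bp from the start, negative being upstream. From the start to 500 bp after it the libraries listed 16, 27, 2 and 0 CpGs.

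Ezh2, the other catalytic subunit and the more active methyltransferase in dividing cells, lies on chromosome 6 from 47530274 to 47595270. Its extended span had 79.2%, 81.7%, 80.2% and 76.4%, with overlapping groups. Its start window showed the widest gap of the 10 genes, with 94.1% and 74.3% in the controls against 13.7% and 8.12% in FGR, a difference of -73.3 points. These levels rest on 3 and 6 CpGs in the controls, with 17 and 35 reads, and on 10 and 34 in FGR, with 51 and 197 reads. Counted from the start, with upstream negative, the CpGs lay at -1499 to -1324 bp in control 1 and at -1499 to -537 bp in control 2. In FGR 1 they lay at -1341 to -554 bp and in FGR 2 at -1499 to 216 bp. Levels at the CpGs of that window listed in both groups were 83.3%, 59.1%, 54.5% and 48.4%, from 1, 4, 2 and 3 CpGs with 6, 22, 11 and 31 reads. There both FGR libraries lay below both controls, with a difference of -19.7 points. The number of CpGs of the window listed by all 4 libraries was 0. The gene body, taken from 500 bp inside each end, had 79.8%, 81.0%, 82.5% and 81.7%, or 1.69 points more in FGR. At the 65 CpGs of the extended span listed by all 4 libraries the levels were 66.4%, 68.7%, 72.8% and 70.4%. Both FGR libraries lay above both controls at these 65 CpGs, with a difference of 4.04 points.

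**Figure D1:**
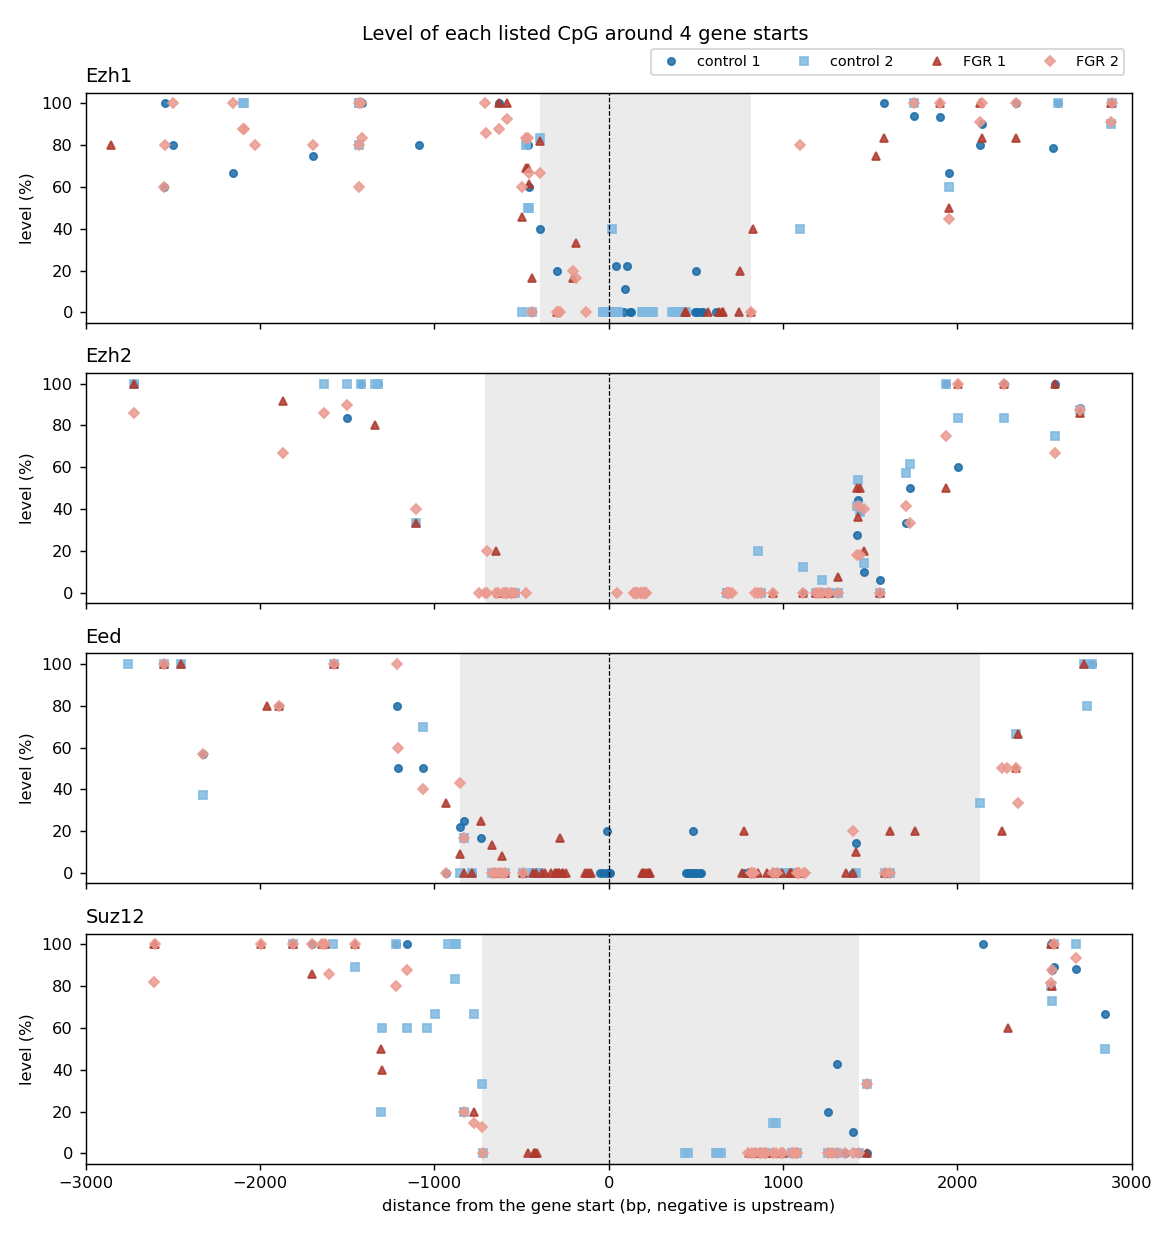
Methylation level in percent of each listed CpG (vertical) against its distance from the gene start in bp (horizontal) for Ezh1, Ezh2, Eed and Suz12; points are single CpGs in 1 library, coloured by library, and grey marks a low stretch. In Ezh2 the controls have 3 and 6 CpGs from 1500 bp before to 500 bp after the start and FGR 2 has 34, most of them at or near 0 inside the grey stretch.

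Eed, the core subunit that binds methylated H3, lies on chromosome 7 from 89954654 to 89980976. Its extended span had 73.9% and 80.8% in the controls, 52.5% in FGR 1 and 79.5% in FGR 2, a difference of -11.4 points, and FGR 2 lay between the controls. With 1 library left out the difference ran from -24.9 points without FGR 2 to 2.09 without FGR 1. At CpGs listed in both groups Eed had 77.3%, 79.9%, 65.8% and 82.2%. The start window of Eed was low in every library, with 10%, 9.64%, 3.75% and 19.7%.

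Suz12, the core scaffold of PRC2, lies on chromosome 11 from 79993106 to 80034123 and had 86.8%, 81.7%, 80.5% and 84.0% over its extended span. The groups overlapped. Its start window had 100% in control 1 from 2 CpGs, below the minimum of 3 CpGs per library, and 57.0%, 23.9% and 42.6% in the others from 17, 9 and 7. Jarid2, an accessory subunit that helps recruit PRC2, lies on chromosome 13 from 44730774 to 44921643 and is the longest of the 10 genes. Its levels were 86.9% and 86.6% in the controls against 84.6% and 84.5% in FGR. Both FGR libraries were below both controls, by 2.24 points in the means, and at CpGs listed in both groups the 4 values lay between 85.9% and 86.3%.

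Pcgf2, a RING-finger subunit that defines one kind of PRC1, lies on chromosome 11 from 97688821 to 97702434 and had the largest span difference of the 10. The levels were 53.0% and 41.8% in the controls and 79.0% and 67.1% in FGR, a difference of 25.6 points with both FGR libraries above both controls. At CpGs listed in both groups they were 63.5%, 66.6%, 83.8% and 61.1%, a difference of 7.44 points with overlapping groups. All 7 CpGs of this span listed by all 4 libraries were at 100% in each library. The start in the promoter table, 97699648 on the minus strand, lies inside the gene. The window at this start was at 0%, 2%, 0% and 0% over 6, 16, 2 and 1 CpGs. The gene's outer end lies in another low stretch, of 68 CpGs, from -4433 to -2151 bp of that start. Of these the libraries listed 23, 47, 6 and 24. The extended span also holds parts of Mllt6, Cisd3 and Psmb3.

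Bmi1, the paralogue of Pcgf2 also called Pcgf4, lies on chromosome 2 from 18677018 to 18686629. Its extended span had 63.8%, 46.0%, 37.3% and 57.4%, and the groups overlapped. The difference was -7.53 points over all listed CpGs, -7.19 at CpGs listed in both groups, -7.42 outside low stretches and -1.11 at the 27 CpGs listed by all 4 libraries. Its sign rests on single libraries: over all listed CpGs it was 1.36 without control 1 and 2.52 without FGR 1, and -16.4 without control 2 and -17.6 without FGR 2. In the body the levels were 84.6% and 93.4% in the controls against 60.3% and 74.5% in FGR, a difference of -21.6 points, and at CpGs listed in both groups 84.6%, 94.5%, 67.5% and 89.8%, with overlapping groups. Only 28 to 59 CpGs stand behind each body value. The extended span of Bmi1 also overlaps Gm33355, Commd3 and Gm46725, and its low stretches of 53 and 83 CpGs lie outside the gene. The extended spans of Ezh1, Ezh2, Jarid2 and Cbx2 overlap other genes as well. Pcgf1, the RING-finger subunit of variant PRC1, is the shortest member, on chromosome 6 from 83077552 to 83080855, and had 71.4%, 55.7%, 60.3% and 63.5%. Control 1 alone was high in its body, with 78.8% against 29.8%, 34.1% and 36.7%.

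Rnf2, the ubiquitin ligase of PRC1, lies on chromosome 1 from 151469398 to 151500991 and had 72.7%, 80.6%, 80.8% and 81.6%. Both FGR libraries were above both controls, but control 2 differed from FGR 1 by less than the controls differed from each other. Cbx2, whose chromodomain reads methylated H3, lies on chromosome 11 from 119023019 to 119031275 and had 56.6%, 57.7%, 55.6% and 55.3%. Its body was at 96.7%, 90.4%, 92.0% and 89.8%, so its low span level comes from outside the body. The promoter table holds neither Pcgf1 nor Cbx2, and both ends of these genes were measured in place of a start.

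**Figure D2:**
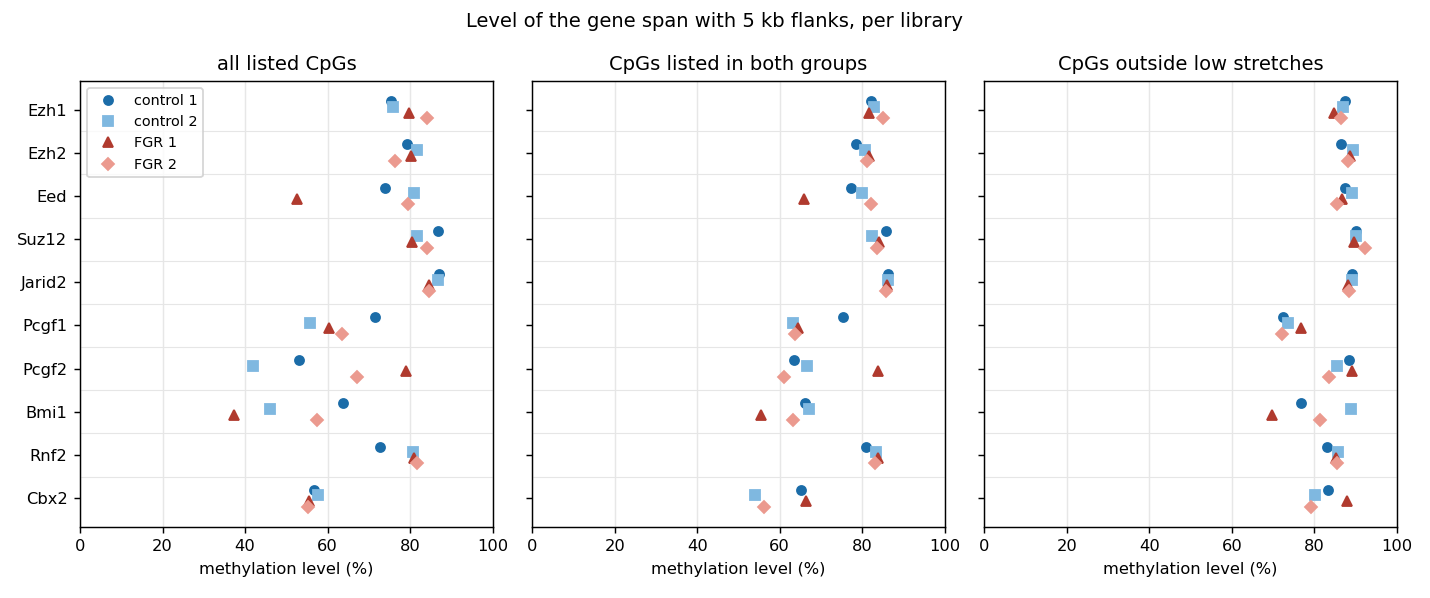
Methylation level in percent (horizontal) of the extended span of each of the 10 genes (vertical) in the 4 libraries, for all listed CpGs, CpGs listed in both groups and CpGs outside low stretches. The 4 libraries of Pcgf2 spread from 41.8% to 79.0% over all listed CpGs and from 83.6% to 89.1% outside low stretches.

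Counted over the 10 genes, 3 extended spans had both FGR libraries above both controls (Ezh1, Pcgf2 and Rnf2), against 10.4% of all 32613 spans measured, and 2 had both below (Jarid2 and Cbx2), against 25.8%. A difference of at least 10 points was seen in 2 of 10 (Eed and Pcgf2), against 7.84%. Which genes pass this limit depends on the region and the libraries. With no flank 4 passed (Pcgf1 -15.1, Pcgf2 23.1, Bmi1 -20.8 and Cbx2 -13.0 points) and Eed did not, with at least 10 reads per CpG 4 passed, without FGR 1 only Pcgf2 did, and without FGR 2 3 passed. The median difference was -1.85 points over the 10 genes and -1.11 over all spans. With CpGs listed in both groups, 1 gene was above (Ezh2; 8.15% of all spans) and 2 below (Jarid2 and Bmi1; 14.8%), no gene reached 10 points (1.89% of all spans), and the median was 0.29 points against -0.53. Of 10 windows of 8 members with enough CpGs in every library, 6 were at known starts and 4 were the ends of Pcgf1 and Cbx2, of which 1 per gene is not a start. Of the 10, 1 was above (Ezh1; 14.7% of all windows) and 1 below (Ezh2; 18.9%). Of 10 bodies, 3 were above (11.3%) and 3 below (24.1%).

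No member was called by the quasi-binomial model, at a Benjamini-Hochberg adjusted p under 0.05 and at least 10 points, in any of the 7 comparisons across genes. The share called over all extended spans, listed CpGs, was 0.0%. For these spans 2085 of 32613 had an unadjusted p under 0.05, and limma on log2 ratios also called 0. At gene starts the model made no call on artificial data with the spread of these libraries either, even for large changes, so a count of 0 there says nothing about the starts.

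Low stretches are runs of at least 5 CpGs in which the mean level of 5 neighbouring CpGs, pooled over the 4 libraries, was under 30%. This rule was set after the data had been seen, and low levels inside the stretches follow from it. Each of the 10 extended spans held at least 1 such stretch, and those of the 8 members with a known start held one that reaches across it. In Bmi1 no library listed a CpG from 500 bp before to 500 bp after the start. Its level there is thus unmeasured, and the libraries listed 5, 0, 0 and 14 of the 15 CpGs of its stretch. That of Ezh2 reached from -710 to 1557 bp of the start, with 54 CpGs, of which the libraries listed 12, 18, 21 and 54. In Eed 81 CpGs stood in the stretch, and the libraries listed 29, 22, 60 and 21 of them. FGR 1, the library with the lowest span level of Eed, listed the most of them.

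The share of listed CpGs that fell in low stretches differed between libraries of the same gene. In Pcgf2 it was 41.4% and 51.3% in the controls and 14.5% and 17.9% in FGR. In Eed it was 16.3%, 12.2%, 40.5% and 10%. In Ezh1 it was 14.4%, 16.1%, 8.57% and 4.35%. The difference of this share between the groups had the opposite sign to the difference of the level in 10 of 10 members, as in 82.4% of the 21690 genes whose share differed. This follows largely from the rule, since the stretches were picked for low levels in these same libraries, so it is no separate evidence.

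**Figure D3:**
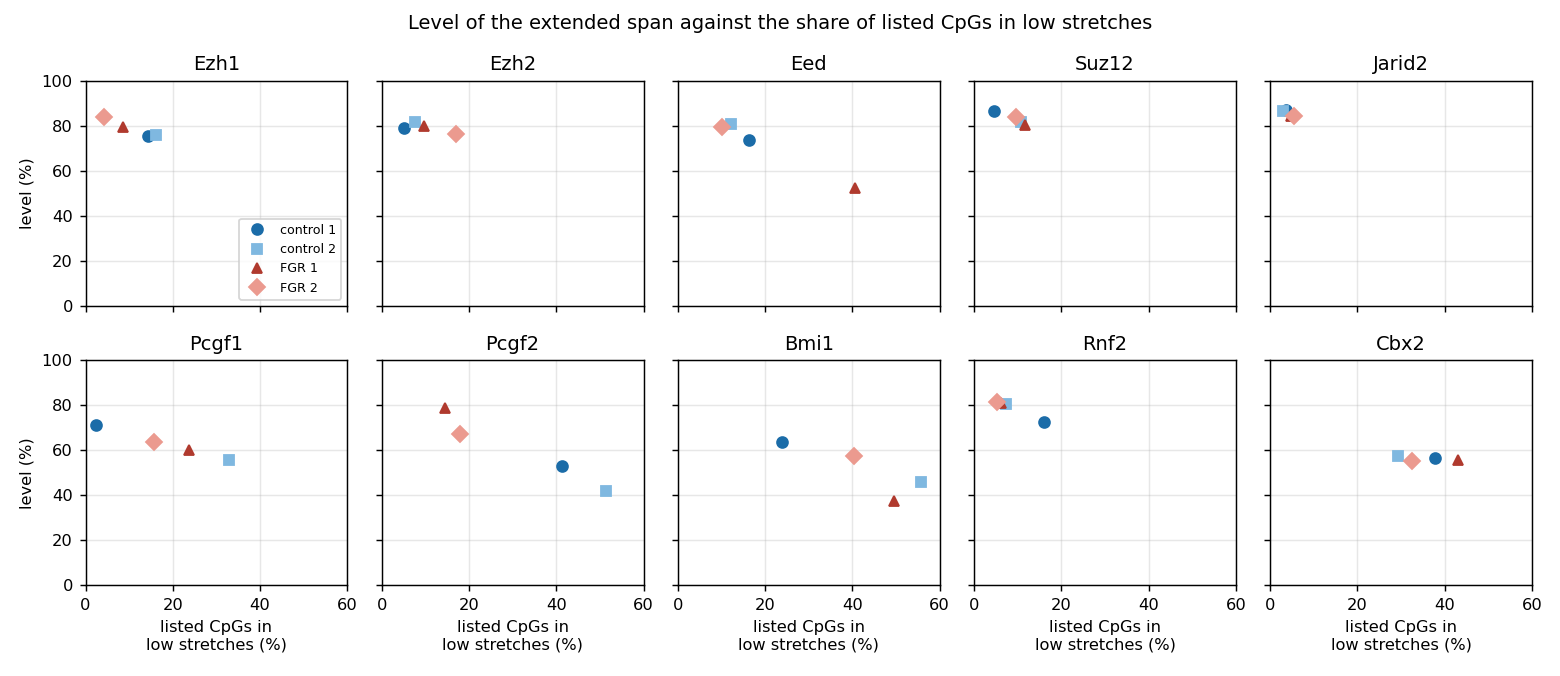
Methylation level of the extended span in percent (vertical) against the percent of its listed CpGs that fall in low stretches (horizontal), 1 panel per gene and 1 point per library. FGR 1 of Eed stands apart at 40.5% and a level of 52.5%, and the controls of Pcgf2 lie at 41.4% and 51.3%.

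Outside low stretches the span of Pcgf2 had 88.4%, 85.4%, 89.1% and 83.6%, a difference of -0.54 points in place of 25.6. Eed had 87.4%, 89.1%, 86.7% and 85.6%, a difference of -2.10 points. Ezh1 had 87.3%, 87.0%, 84.8% and 86.4%, and its difference of -1.53 points had the opposite sign to that over all listed CpGs. The median size of the difference over the 10 genes, sign left out, was 3.39 points over all listed CpGs and 1.20 outside low stretches, and over all genes 2.67 and 1.74. Leaving out CpGs picked for low levels makes the remaining levels more alike, so smaller differences were favoured by the rule. None of the 10 genes reached 10 points outside low stretches, against 1.54% of all genes, and Bmi1 had the largest size, with -7.42 points and overlapping groups (76.9%, 88.9%, 69.6% and 81.3%).

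**Figure D4:**
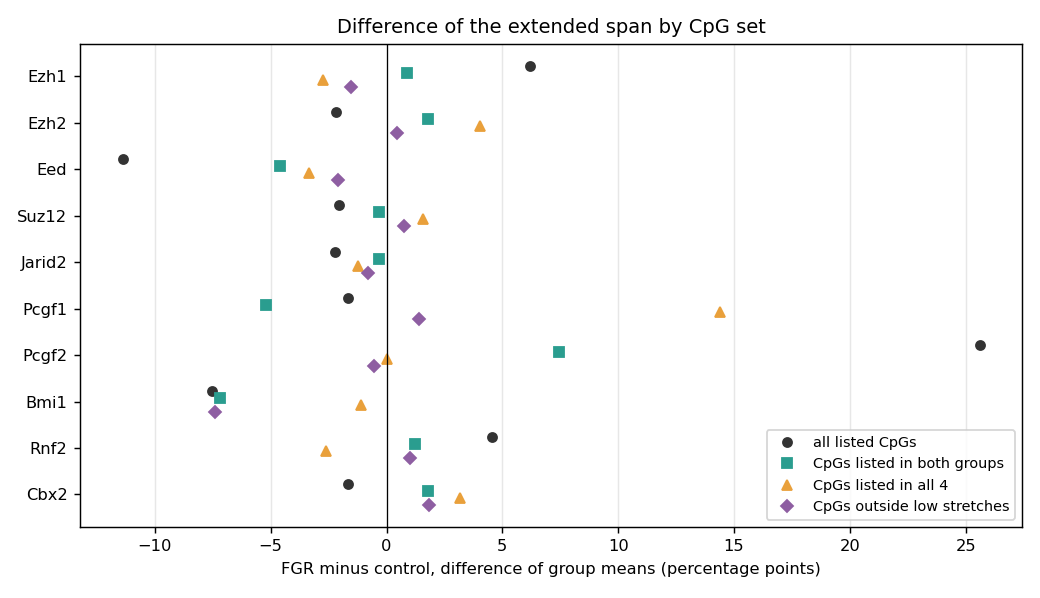
Difference of the extended span, FGR minus control, in percentage points (horizontal) for each gene (vertical) and 4 sets of CpGs. Pcgf2 moves from 25.6 points over all listed CpGs to -0.54 outside low stretches, and Bmi1 has -7.53 and -7.42, a difference that over all listed CpGs turns positive without control 1 or FGR 1.

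Single CpGs listed by all 4 libraries compare the same sites throughout. Of the 423 in the 10 extended spans, 26 (6.15%) had both FGR libraries on one side of both controls with a difference of at least 20 points, against 11.2% of 1418485 over the autosomes. Sites at 100% in all 4 libraries, or at 0% in all 4, cannot pass this rule, and they made up 103 (24.3%) of the 423 against 10.1% over the autosomes. Among the other sites 8.12% of the members' and 12.5% of all passed. Of the 26, 13 were higher and 13 lower in FGR. Jarid2 held 11 of them among its 165 shared CpGs and Ezh2 5 among 65. The median difference over the 423 CpGs was 0 points.

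Among 30 other Polycomb and related genes, 0 were called over extended spans. Their median difference was -0.73 points, with 6 above and 5 below, or 20% and 16.7% of the 30, against the 10.4% and 25.8% of all spans. By the rule for naming, the largest rises in value were those of Phf1, a PRC2 partner, with 47.9%, 34.6%, 64.6% and 70.3%, and Cbx6, a PRC1 subunit, with 60.6%, 62.4%, 82.1% and 69.8%. The lowest differences were those of Kdm6b, which removes H3 lysine methylation, with -14.8 points, and Ring1, the paralogue of Rnf2, with -10.7. At CpGs listed in both groups these 4 genes had 5.54, 3.38, -5.13 and -0.89 points.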

How the data were processed

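Sonicated genomic DNA of 4 libraries was bisulfite sequenced, per the labels. Trim Galore 0.6.5, methylKit 1.28.0, Bismark and the build mm10 are named in the submitters' processing notes; parameters and the Bismark version: not given in the sources used here. Every deposited table gives, per the file headers, a count of reads and the percent of reads with C and with T per cytosine and strand; the lowest deposited coverage is 5. Methylated reads were recovered from both (whole within 0.02 reads for 100% of cytosines), strands were summed per CpG, and the 0.1% of CpGs with the highest coverage in each library were left out. Reads that cover several CpGs count at each. All precision is limited by 2 libraries per group: of 6 assignments the smallest exact two-sided p is 0.333.

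Genes are RefSeq's of GRCm38.p6. A region needed 3 CpGs and 10 reads in every library. A quasi-binomial model of the read counts had 1 term, the group, with overdispersion moderated with squeezeVar of limma 3.58.1 (R 4.3.3; trend on coverage, kept at 1 or above), over all regions of 7 comparisons. The other computations used Python 3.11.15. The members and gene lists were chosen with earlier results of these data known. All members are named; of the other list, those called and the 2 highest and 2 lowest differences with at least 20 CpGs.

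The model was tested on simulated data with the spread of these libraries, whose sizes of change were enlarged after a first run had recovered no gene start. Only regions that were already highly or little methylated were changed, by 20 points or more. Regions of intermediate level and changes of 10 points were not simulated, so recovery is unknown for them. At 20 points the planned model recovered 39 of 50 changed spans and 29 of 50 changed bodies over all listed CpGs, and more at larger sizes. It recovered no gene start, where dispersions at or near 0 weaken the moderation. A smallest dispersion was then tried in 4 forms besides none (0.01, 0.05, 0.2, and the 0.1% point at a dispersion of 10, which scales with the degrees of freedom), with the calls on the real libraries in view. The last form was made after the flat 0.01 had given up to 924 calls with 1 library left out. The model without a floor is reported as planned, and the floors are alternatives chosen after seeing the data, as are the low stretches with limits of 20, 30 and 40%. The labels do not say whether same-numbered libraries are paired. Their deviations had a correlation of 0.0175 across genes. That does not settle the question, since noise from few reads per CpG can hide a shared deviation. Other alternatives left out each library, added the replicate number as a block, or changed the test, coverage limits, flanks, weights or CpG sets.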

Additional observations from a re-analysis of the deposited data

How the results depend on the processing

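The planned model called 0 regions in all 7 comparisons and in all 28 fits with 1 library left out, and limma called 0. Without the filter on high coverage it called 3 extended spans and 1 body at CpGs listed by all 4 libraries. The replicate block, fitted although the labels give no pairing of the libraries, called 0 in all 7 comparisons. Of the 4 smallest dispersions, all chosen after seeing the data, 0.01, 0.05 and the scaled one each called 1 body at CpGs listed by all 4 libraries (Mrpl39), 0.05 and 0.2 each called 1 gene start there (Ccdc107), and 0.2 called 23 bodies over all listed CpGs. No member was called with any of them while all 4 libraries were in without the block. With the flat 0.01 and 1 library left out, calls ran from 0 to 924 and up to 3 members were called, in 10 of 28 fits; with the block, calls reached 691 and up to 2 members were called, in 3 of 7 fits. Flat 0.05 and 0.2 gave up to 669 and 409 calls with 1 library left out, and up to 2 members. The scaled form called 0 in those 28 fits and with the block. With 1 library left out, an arm has 1 library, which is taken to vary like the other arm.

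The median member difference of -1.85 points was between -1.85 and 1.02 with 1 library left out, positive without control 1 (0.54) or FGR 1 (1.02), 1.005 with at least 10 reads per CpG, and 0.84 outside low stretches under 20%. At least 10 reads per CpG changed the sign of 6 of 10 member differences, CpGs listed by all 4 libraries 6 (Pcgf2 came to 0 there, and Pcgf1 rests on 2 CpGs), and CpGs outside low stretches 6, or 5 and 6 with limits of 20 and 40%. None of the 10 genes reached 10 points outside low stretches at any of these limits. The cause of these changes was not tested. Some gene starts rest on 1 to 3 CpGs in a library, which limits what they show. How depth bears on that was not tested. FGR 2, the deepest library, listed 3 of the 177 upstream CpGs of the members (1.69%) against 15 (8.47%) in control 1. Over all 20085 promoters, which hold fewer CpGs, the order was the reverse, with 16.7% listed in FGR 2 and 12.5% in control 1. Promoters with 16 to 25 CpGs had 14.9% in FGR 2 and 11.3% in control 1. Those with 26 or more had 3.77% and 4.06%.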
